A study of Danio rerio with 4 samples.

Results

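The actin, tubulin and keratin cytoskeleton genes described here are those whose symbol in the deposited tables begins with the name of an actin, a tubulin, a keratin, or a protein that binds or remodels these filaments (Arp2/3 complex subunits, filament capping and crosslinking proteins, calponins and transgelins, tropomyosins, myosin light chains, stathmins, and annexins). The rule found 34 genes among the 2543 genes that were in at least 1 deposited list. Total RNA of whole zebrafish retina had been sequenced from 4 libraries, with 1 library per condition: uninjured retina, retina at 12 hr post-injury (hpi), retina at 4 days post-injury (dpi), and 4 dpi retina of fish kept in cyclopamine, an inhibitor of Smoothened and thereby of Sonic hedgehog signaling. All fish were wild type and 10 months old, the injury was made with a needle, and the treated fish were dipped in 10 μM cyclopamine for the 4 days after it. The number of retinae behind each library is not given in the sources used here.

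Actin, tubulin, and keratin each polymerize into one of the filament systems of a cell. Actin filaments shape the cell cortex and drive movement, microtubules carry transport and form the mitotic spindle and the axon, and keratins are the intermediate filaments of epithelia. In the zebrafish retina, an injury leads Müller glia to reprogram, divide, and give rise to neurons, while microglia and other phagocytes gather at the wound, and each of these steps involves remodeling of the cytoskeleton.

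The deposited tables are limited to features the authors called as differing from the uninjured library. Values are in FPKM (fragments per kilobase, scaled for library size), by transcript in the 12 hpi table and by gene in the 4 dpi table. For 4 dpi with cyclopamine the lists hold names without values, and whether a row there is a gene or a transcript is not certain, since 12 genes were in both directions and *actb1* had 2 rows. Ratios are given as log2((later FPKM + 0.1)/(uninjured FPKM + 0.1)), and a fold is the same ratio on the linear scale. With 1 library per condition, no difference has a replicate check, no test was made, and the library depth is not given by the tables. The authors' lists were chosen on these same libraries, and all comparisons share 1 uninjured library, whose FPKM was identical in both tables for 74 of 74 genes with 1 annotated transcript, so the comparisons are not independent of each other. In whole retina, fewer cells of a type and less RNA per cell cannot be told apart.

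The members were mostly listed as higher after injury. At 12 hpi, 11 of the 605 listed genes were members, and 11 were listed as higher and 0 as lower, where 63.8% of all listed genes were higher. At 4 dpi, 26 of 1466 listed genes were members, with 25 higher and 1 lower, where 60.9% of all listed genes were higher. In the cyclopamine lists, 25 of 1390 genes were members, with 23 higher and 2 lower, where 47.1% of all listed genes were higher. The map of list membership gives these calls gene by gene.

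**Figure D1:**
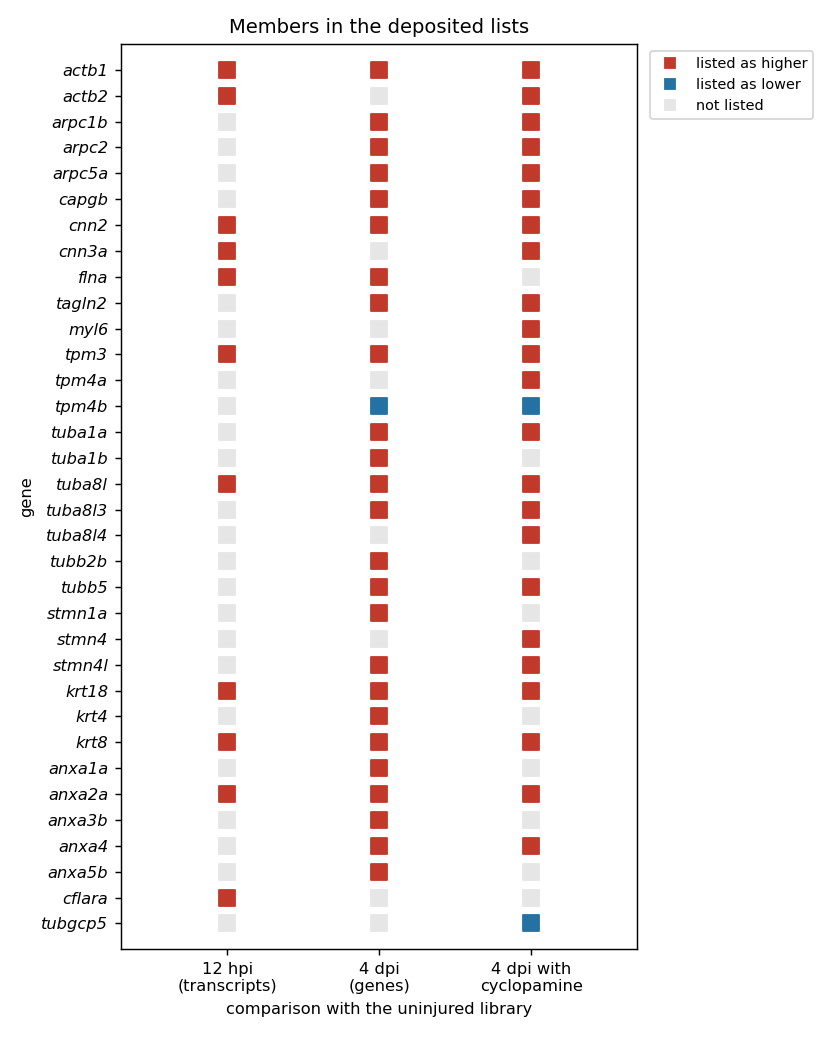
Membership of the 34 genes (rows) in the lists of each comparison with the uninjured library (columns), with red for higher, blue for lower, and gray for not listed. Red fills 11 rows at 12 hpi, 25 at 4 dpi without cyclopamine, and 23 with it, and blue appears for *tpm4b* and *tubgcp5* alone.

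A size rule of 4-fold gave 9 of 11 members higher and 0 lower at 12 hpi, against 54.7% and 22.0% of all listed genes, and 19 of 26 members higher and 0 lower at 4 dpi, against 49.0% and 17.3%. These shares are over both directions, while nearly all members were listed as higher. Among all genes listed as higher, 331 of 386 were past the rule at 12 hpi and 718 of 893 at 4 dpi. The size of the members' ratios did not stand above that of other genes in the higher lists. The median log2 ratio was 2.51 for the 11 members at 12 hpi, against 3.25 for the 386 genes listed as higher, and 2.55 for the 25 higher members at 4 dpi, against 2.69 for the 893 genes listed as higher. These medians include genes at 0 in uninjured retina, whose ratios depend on the pseudocount. Such genes were 116 of the 386 and 1 of the 11 members at 12 hpi, and 113 of the 893 and 0 of the 25 members at 4 dpi. The medians therefore do not compare like sets. Over both directions the medians were 2.51 for members and 2.16 for listed genes at 12 hpi, and 2.52 and 1.95 at 4 dpi. What differed more was the level, since the median later FPKM of the higher members was 31.4 at 12 hpi and 43.0 at 4 dpi, against 9.88 and 16.2 for all genes listed as higher. The level also differed before injury. Median uninjured FPKM was 3.88 for the members higher at 12 hpi, against 1.04. For those higher at 4 dpi it was 3.85, against 2.19. The genes at 0 enter these medians too.

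**Figure D2:**
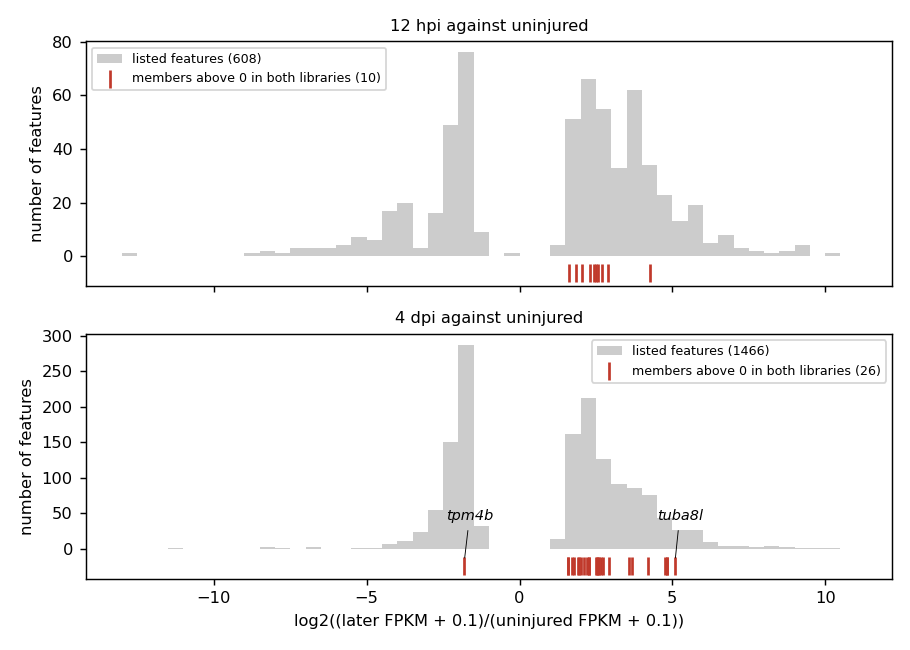
Number of listed features (y axis, gray bars) by log2 ratio to the uninjured library (x axis, pseudocount 0.1 FPKM) at 12 hpi and 4 dpi, with each member above 0 in both libraries as a red tick. The members lie between 1.60 and 4.26 at 12 hpi and between -1.81 (*tpm4b*) and 5.09 (*tuba8l*) at 4 dpi, and the tables of called features leave few bars around 0, with 1 gene at -0.098 at 12 hpi.

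The gene *actb1* encodes a cytoplasmic β-actin and is widely used as a reference gene in PCR. Its identifier is the one beside the β-actin primers in the study's primer list, and it lies at chr1:7964987-7968621 on the minus strand (GRCz10 is the build in the submitters' processing notes). The primers are shown because the gene they are listed for is set here beside its relatives, and whether they also match *actb2* was not examined.

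beta-actin F: gcagaaggagatcacatccctggc
beta-actin R: cattgccgtcaccttcaccgttc

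In these libraries *actb1* was among the most abundant listed genes and was higher at both times. Its listed transcript was at 102.7 FPKM in uninjured retina and 503.4 at 12 hpi, a log2 ratio of 2.29 (4.90-fold), and ranked 2 of 386 higher-listed genes by FPKM at 12 hpi. The gene value was 109.3 FPKM in uninjured retina and 664.5 at 4 dpi, a log2 ratio of 2.60 (6.08-fold), and ranked 22 of 893. The transcript carried 94.0% of the gene's uninjured FPKM. The gene was also listed as higher at 4 dpi with cyclopamine.

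The other cytoplasmic β-actin gene, *actb2*, was represented by 1 of its 7 annotated transcripts, which was listed at 0 in uninjured retina and at 1.22 FPKM at 12 hpi. That transcript says little of the whole gene, which was in neither list at 4 dpi. The symbol was in the higher list with cyclopamine, where the feature listed may be a transcript or the gene. The β-actins are closely related, their sequences were not compared here, and the division of reads between *actb1* and *actb2* is uncertain. Of the muscle actins, whose symbols begin with acta or actc, and of the γ-actins, none was in a list.

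Branched actin networks are nucleated by the Arp2/3 complex, and 3 of its subunits were listed as higher at 4 dpi, with none at 12 hpi. The subunit *arpc1b* was at 3.65 FPKM in uninjured retina and 45.2 at 4 dpi (log2 ratio 3.59, 12.1-fold). The subunit *arpc2*, which was more abundant at the start, was at 21.1 and 62.9 FPKM (1.57), and *arpc5a* was at 2.35 and 11.3 (2.22). All of them were higher with cyclopamine as well. The actin-related subunit *actr3* of the same complex, which the rule misses, was listed under 2 identifiers, at 29.96 and 95.3 FPKM for one and 26.9 and 77.6 for the other, and neither was in a cyclopamine list.

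Among proteins that cap, crosslink, or anchor actin filaments, *capgb*, a relative of gelsolin that caps filament ends, had the largest ratio at 4 dpi. It was at 0.667 FPKM in uninjured retina and 9.81 at 4 dpi (3.69, 12.9-fold). Filamin A (*flna*) crosslinks filaments and links them to the membrane, and its values were 3.88 and 26.0 FPKM for the listed transcript at 12 hpi (2.71) and 7.72 and 29.5 for the gene at 4 dpi (1.92). The listed *flna* transcript carried 50.3% of the gene's uninjured FPKM, so these ratios describe different features. The gene was in neither cyclopamine list.

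Calponins and transgelins bind along actin filaments. The calponin *cnn2* was at 3.23 and 19.7 FPKM in the 12 hpi table (2.57) and at 3.68 and 16.2 in the 4 dpi table (2.11). Its relative *cnn3a* was at 10.3 and 31.4 FPKM at 12 hpi (1.60), was not listed at 4 dpi, and was higher with cyclopamine. The transgelin *tagln2* was at 4.24 and 14.8 FPKM at 4 dpi (1.78).

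Tropomyosins lie along the actin filament and set which proteins reach it, and here the listed members went in opposite directions. *tpm3* was higher, at 7.92 and 32.9 FPKM for the transcript at 12 hpi (2.04) and 12.6 and 37.7 for the gene at 4 dpi (1.57). *tpm4b* was at 92.0 FPKM in uninjured retina and 26.2 at 4 dpi, a log2 ratio of -1.81 (3.50-fold lower), and was the one member listed as lower there. It was also lower with cyclopamine, while its paralog *tpm4a* was listed as higher there and in no other list. The myosin light chain *myl6*, a subunit of non-muscle myosin, was likewise listed only with cyclopamine, as higher.

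**Figure D3:**
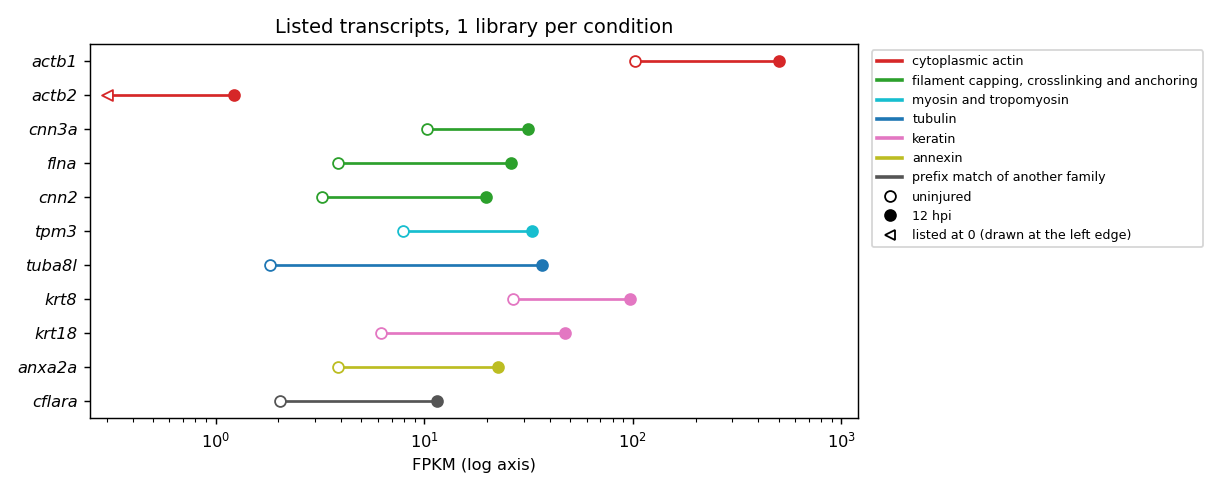
FPKM (log axis) of the 11 members listed at 12 hpi in the uninjured library (open points) and at 12 hpi (filled points), colored by role. Every filled point lies to the right of its open point, *actb1* is the highest in both libraries, and *tuba8l* spans the longest distance among members above 0, from 1.82 to 36.8, while *actb2* is listed at 0 in uninjured retina.

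The tubulins were the largest group, with 7 members and 6 listed as higher at 4 dpi. α-Tubulin and β-tubulin pair into the dimers from which microtubules grow. The α-tubulin *tuba8l*, which the name table calls *tuba5*, had the largest ratio at both times among members above 0 in both libraries, at 1.82 FPKM in uninjured retina, 36.8 at 12 hpi (4.26), and 65.3 at 4 dpi (5.09). It was the only tubulin listed at 12 hpi.

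Among the listed α-tubulins *tuba1a* had the highest FPKM at 4 dpi. It is a gene known for its expression in growing axons and in the injury-induced progenitors of the fish retina, and it was at 14.2 FPKM in uninjured retina and 263.2 at 4 dpi (4.20, 18.4-fold). *tuba1b*, its neighbor, was at 27.1 and 109.3 FPKM (2.01, 4.02-fold), and *tuba8l3* was at 3.61 and 20.9 (5.65-fold). The summed FPKM of these 4 α-tubulins was 46.8 in uninjured retina and 458.7 at 4 dpi, 9.81 times as high. All 4 were listed as higher, so a rise of their sum was set by that choice. Within that sum *tuba1b* held 58.0% before injury and 23.8% at 4 dpi, and *tuba1a* held 30.4% and 57.4%, so their order was the reverse. Tubulin genes that were not listed or that the rule misses are outside that sum.

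Both β-tubulin members were higher at 4 dpi. *tubb5* was at 7.87 FPKM in uninjured retina and 223.9 at 4 dpi (4.81, 28.1-fold), and *tubb2b*, a β-tubulin of neurons in mammals, was at 88.7 and 292.2 (1.72, 3.29-fold). Their sum was 96.5 and 516.1 FPKM, of which *tubb5* held 8.15% before injury and 43.4% after it. A rise of this sum was likewise set by the choice of genes listed as higher. The shares leave out tubulin genes that were not listed or that the rule misses. With cyclopamine *tuba1a*, *tuba8l*, *tuba8l3*, *tubb5*, and *tuba8l4* (in no other list) were higher, and *tuba1b* and *tubb2b* were in neither list.

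**Figure D4:**
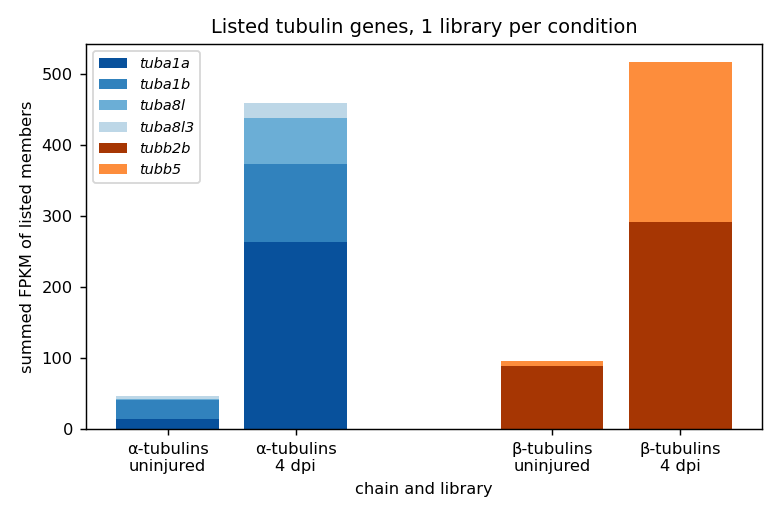
Summed FPKM (y axis) of the α-tubulin and β-tubulin members in the uninjured library and at 4 dpi, with each gene as a segment of the bar. Every gene drawn was listed as higher at 4 dpi, so taller bars there were set by that choice. The α-tubulin bar goes from 46.8 to 458.7 and the β-tubulin bar from 96.5 to 516.1, with *tuba1a* and *tubb5* taking larger shares at 4 dpi.

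Reads of near-identical tubulin genes may be shared between them, and the authors' handling of such reads is not given in the sources used here. *tuba1a* and *tuba1b* lie on the same strand of chromosome 23, 2157 bases apart. They are the closest of the 29 members with a position, which are spread over 16 chromosomes. The next closest are *krt8* and *krt18*, 93.6 kb apart on chromosome 23, and *actb2* and *arpc1b*, 279.2 kb apart on chromosome 3.

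Stathmins bind tubulin dimers and favor the shortening of microtubules. *stmn1a*, related to the mammalian stathmin of dividing and developing cells, was at 1.47 FPKM in uninjured retina and 44.1 at 4 dpi (4.81, 28.1-fold), and was in neither cyclopamine list. *stmn4l* was at 15.2 and 58.8 FPKM (1.94) and was higher with cyclopamine, as was *stmn4*, which was in no other list. No stathmin was listed at 12 hpi.

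Keratins 8 and 18 pair in simple epithelia, and both of the genes named for them were higher at both times. *krt8* was at 26.8 and 96.5 FPKM in the 12 hpi table (1.85) and 28.3 and 166.4 in the 4 dpi table (2.55). *krt18* was at 6.23 and 47.4 FPKM at 12 hpi (2.91) and 7.27 and 43.0 at 4 dpi (2.55). At 4 dpi the log2 ratios of the pair were thus nearly equal, while at 12 hpi that of *krt18* was larger. The 12 hpi values are of listed transcripts, which carried 94.7% (*krt8*) and 85.7% (*krt18*) of the gene's uninjured FPKM. The ratios at the 2 times therefore describe different features. Both were higher with cyclopamine. A further gene of the intermediate filament family, zgc:77517, which the name table calls *krt18b* and which the rule misses, was at 4.41 and 64.4 FPKM at 4 dpi (3.84).

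The third keratin, *krt4*, a keratin of surface epithelium, was at 1.33 and 6.84 FPKM at 4 dpi (2.28) and was in no other list. In a list of 23 genes of cornea and skin, the only other gene listed was *icn*, at 42.3 FPKM in uninjured retina and 303.5 at 4 dpi, and at 12 hpi none was listed. Lens genes were in the lists of both times. Of 32 lens markers, 8 were higher at 12 hpi, with a summed FPKM of 4.38 before and 470.7 after injury, and 8 were higher at 4 dpi, at 4.38 and 218.1, with 5 of them listed at 0 in uninjured retina. These sums hold only markers listed as higher, so their rise was set by that choice. With cyclopamine 9 of the lens markers were higher and 0 lower. The part of these cell types in the keratin values was not tested.

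Annexins bind membrane phospholipids in the presence of calcium, and several also bind actin. All 5 annexin members were higher at 4 dpi, and *anxa2a* had the largest ratio. It was at 3.85 FPKM in uninjured retina, 22.5 at 12 hpi (2.51), and 108.0 at 4 dpi (4.77, 27.3-fold), and it has 1 annotated transcript, so the transcript and gene values describe the same feature.

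The other annexins were at 1.74 to 3.55 FPKM in uninjured retina and 13.8 to 23.0 at 4 dpi. Their log2 ratios were 2.26 for *anxa1a*, 2.66 for *anxa3b*, 2.72 for *anxa4*, and 2.91 for *anxa5b*. None of them was listed at 12 hpi. With cyclopamine *anxa2a* and *anxa4* were higher, and *anxa1a*, *anxa3b*, and *anxa5b* were in neither list.

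**Figure D5:**
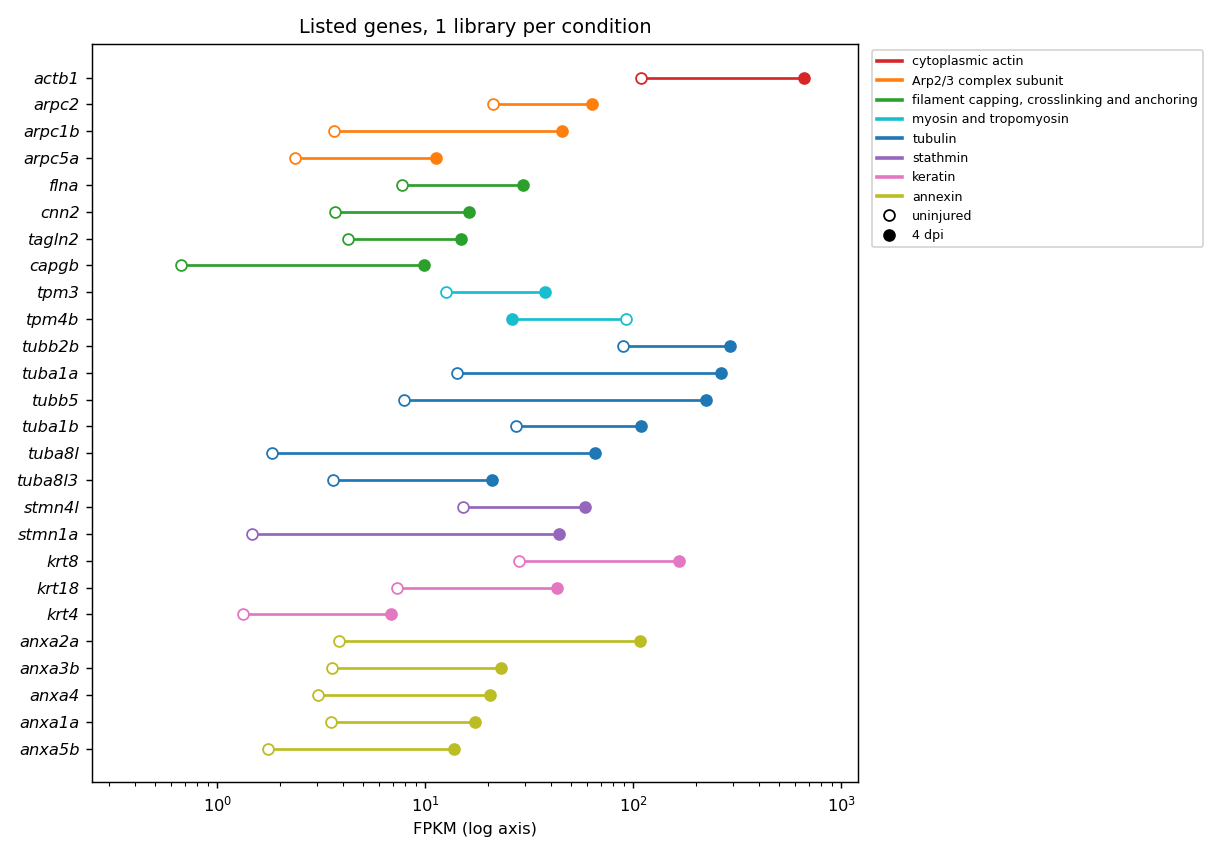
FPKM (log axis) of the 26 members listed at 4 dpi in the uninjured library (open points) and at 4 dpi (filled points), grouped and colored by role. The filled point lies to the right for 25 members and to the left for *tpm4b* (92.0 to 26.2), and *actb1* is the highest at 664.5.

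The prefixes also matched genes of other families. *cflara* is a regulator of caspase-8 and not a cofilin, and it was at 2.04 and 11.6 FPKM at 12 hpi (2.44) and in no other list. *tubgcp5*, a component of the γ-tubulin complex that nucleates microtubules, was listed as lower with cyclopamine and in no other list. Of the 23 prefixes of the rule, 8 had no listed gene, among them those of α-actinin, thymosin β, profilin, vinculin, and non-muscle myosin heavy chain 9.

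Absence from a list does not show that a gene was unchanged, because unlisted genes have no values here. A level with cyclopamine cannot be given for any member, and whether cyclopamine changed a member was not tested.

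Other cytoskeletal genes were counted by list. Of 56 genes for severing, capping, and bundling of actin, 8 were higher and 0 lower at 4 dpi, led by *marcksa* (1.32 and 22.7 FPKM) and *marcksb* (9.98 and 106.6), which encode membrane-bound actin-crosslinking proteins, and at 12 hpi 2 were higher (*msna* and *coro1a*) and 1 was lower (*fscn2a*, 30.8 and 9.97).

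Of 30 genes for Arp2/3 activation and nucleation, 3 were higher at 4 dpi, namely both *actr3* identifiers and *wasb* (0.747 and 5.39 FPKM), and of 23 myosin genes 1 was higher and 1 lower (*myh10*, 17.4 and 5.49). With cyclopamine 0 of the nucleation genes were higher and 1 was lower, and 1 myosin gene was higher and 1 lower. Of the genes for severing, capping, and bundling, 8 were higher with cyclopamine and 0 lower. Of 49 genes of microtubule motors and associated proteins, 0 were higher and 1 was lower at 4 dpi (*camsap1a*, which protects microtubule minus ends, at 27.7 and 7.03), and 3 were higher with cyclopamine. That list leaves out proteins of the mitotic spindle, of which the motor *kif11* (0.452 and 14.9 FPKM) and the spindle assembly factor *tpx2* (0.601 and 25.4) were counted among proliferation genes and were higher at 4 dpi. Of 26 other intermediate filament and associated genes, 4 were counted as higher, among them the glial filament genes *gfap* (10.2 and 84.5 FPKM) and *vim* (15.7 and 95.6), and *synm* was lower (63.9 and 11.6). That count missed nestin, which is on the list but deposited under the symbol NES, and which was also higher (0.448 and 6.47 FPKM).

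Markers of several cell types were higher in the same 4 dpi library, where 60.9% of all listed genes were higher and 39.1% lower. At 12 hpi 63.8% were higher and 36.7% lower, and with cyclopamine 47.1% were higher and 53.7% lower. Of 25 microglia and macrophage markers, 14 were higher, with a summed FPKM of 336.7 in uninjured retina and 2749 at 4 dpi, and none of the 14 was at 0. Most of that sum was *apoeb* (233.6 and 2111 FPKM). With cyclopamine 8 of the microglia and macrophage markers were higher and 1 was lower. Of 18 Müller glia markers 3 were higher, at 77.9 and 1371 FPKM, and most of that sum was *fabp7a* (52.0 and 1191 FPKM). With cyclopamine 4 of the Müller glia markers were higher and 0 lower. For 36 proliferation genes 17 identifiers were higher, and the 14 that are not of members were at 32.1 and 398.9 FPKM. In these counts and sums *rrm2* entered under each of its identifiers. With cyclopamine 7 of the proliferation genes were higher, 6 of them not members, and 0 were lower. Each sum holds only markers listed as higher, so its rise was set by that choice. Markers that were not listed have no values here. At 12 hpi 1 of the microglia markers was higher (*coro1a*, 3.32 and 11.7 FPKM), and of the Müller glia markers *slc1a2b* alone was listed, as lower (66.0 and 16.0 FPKM). Some genes stand on more than 1 list. *coro1a* was also counted among the actin genes above, and the Müller glia markers *gfap* and *vim* among the intermediate filament genes. On the proliferation list the α-tubulin *tuba8l* alone was higher at 12 hpi. Of 22 genes of rods, which mark the tissue as retina, 1 was higher and 1 lower at 12 hpi (*nr2e3*, 11.9 and 72.3 FPKM, and *rcvrna*, 237.4 and 63.6), 1 was higher at 4 dpi, and 3 were lower with cyclopamine. Of 25 cone genes, 0 were listed at 12 hpi, 1 was lower at 4 dpi (*guca1d*, 164.9 and 48.4 FPKM), and 1 was higher and 5 were lower with cyclopamine.

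Markers of muscle were matched by exact symbol, which misses a gene deposited under another symbol. None of 36 skeletal muscle markers was in a list by that match. Of 12 smooth muscle and pericyte markers *rgs5a* alone was listed, as lower (23.3 and 7.80 FPKM). That list holds *taglna*, and the member *tagln2*, which the name table calls TAGLN, was not counted in it. The proliferation list holds 3 members (*stmn1a*, *tuba8l*, and *tubb2b*), and without them the median log2 ratio at 4 dpi was 2.499 for 23 members. Of 10 neutrophil markers 3 were higher at 4 dpi, namely *mmp9* (0.363 and 85.7 FPKM), *cxcr4b*, and *nccrp1*. With cyclopamine 2 of the neutrophil markers were higher and 0 lower. The study describes *mmp9* as induced in regenerating Müller glia. For 4 dpi it places *mmp9* in cells next to the dividing progenitors, and it also shows *mmp9* together with *ascl1a* in dividing progenitors. Which cells gave the *mmp9* value here was not tested. Of 13 red blood cell and 16 retinal pigment epithelium markers 0 were listed at 4 dpi. The part of these cell types in the other members' values was not tested.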

How the data were processed

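The authors deposited FPKM values of called features, by transcript (12 hpi) or by gene (4 dpi), with their own log2 fold changes, test statistics, p-values, and q-values, which were not used. The other 2 deposited lists, for 4 dpi with cyclopamine, hold identifiers and symbols without values. The submitters' processing notes name TopHat2 2.1.0, Bowtie2 2.2.2, Cufflinks 2.2.1, and GRCz10 without their roles. Depth and strandedness are not given in the sources used here.

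Genes were matched by symbol prefix and counted once by Ensembl identifier. At 12 hpi the transcript of largest mean FPKM stood for a gene. Symbols were looked up in a table of 29201 identifiers, which held all 34 members. Whether coordinates count from 0 or 1 is not stated. Genes described in full were the actins and, in each role, up to 4 members of largest absolute log2 ratio, given 1 FPKM or more in the higher of the libraries. The members and lists were chosen with earlier results of these data known. The counting was tested on simulated data, and Python 3.11.15, pandas 2.3.3, and numpy 2.4.6 were used. Promoter motifs and protein identity were not analysed here, and 1 of the gene lists is not reported here. Alternatives were another pseudocount, threshold, minimum level, symbol rule, and way of counting rows.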

Additional observations from a re-analysis of the deposited data

How the results depend on the processing

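With 1 library per condition, no replicate could be left out, and the values carry no error from replicates. No paired analysis was possible because there was 1 library for each condition and no result comes from a test. Of 47 alternative values, 42 stayed within 1.5-fold of the reported one, and none reversed. Some of the 42 could not differ, such as a count of 0 under a stricter threshold. Leaving out genes listed at 0 also changed nothing at 4 dpi, since no member there was at 0. The 42 are therefore no measure of stability. A pseudocount of 1 FPKM gave a median log2 ratio of 2.28 at 12 hpi and 2.32 at 4 dpi. With a threshold of 8-fold, 2 members were past it as higher at 12 hpi, against 9 at 4-fold, and 7 at 4 dpi, against 19. The 2 at 12 hpi were *tuba8l* and the *actb2* transcript listed at 0 in uninjured retina, whose ratio depends on the pseudocount. That transcript is also among the 9. Restricting the symbols to the named cytoskeletal families left 1 member lower with cyclopamine, against 2, because *tubgcp5* was dropped. In alternatives chosen after the data were seen, genes with 1 annotated transcript had a median log2 ratio of 3.59 at 4 dpi (9 members), against 2.52 for all 26, and the cause was not tested. Adding genes of the same protein families that the rule misses gave 2 listed as lower at 4 dpi, against 1, since *synm* joined *tpm4b*.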

Other observations

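Genes of the actin, tubulin, and intermediate filament families that the symbol rule misses were also listed at 4 dpi, 10 as higher and 1 as lower. The tubulin family gene zgc:55461 was at 0.563 FPKM in uninjured retina and 17.9 at 4 dpi, a log2 ratio of 4.76, and another, si:ch211-114n24.6, was at 8.99 and 41.4. Both were higher with cyclopamine. The ε-tubulin gene *tube1*, which acts at centrioles, was listed at 0 in uninjured retina and at 1.63 FPKM at 4 dpi. The nestin gene, an intermediate filament gene of neural progenitors, was at 0.448 and 6.47 FPKM, and the lamin gene *lmnb2* was at 7.77 and 34.1. At 12 hpi the family relative listed was *lmna*, another lamin gene, at 0.926 and 9.97 FPKM.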
